A study of Mus musculus with 3 samples.

Results

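Regulatory T cells (Tregs) of the inflamed sciatic nerve were taken here as single T cells with RNA for Foxp3, the transcription factor that defines the lineage. A cell entered the group when it had at least 1 Foxp3 UMI, at least 1 UMI of Cd3d, Cd3e or Cd3g, no Cd8a or Cd8b1 UMI, no Cd79a UMI, at most 1 UMI over C1qa, C1qb and C1qc, and no Mki67 or Top2a UMI. UMIs are molecular tags, each counted once, that stand for captured RNA molecules. The gate took 908 of 13637 cells, with 335, 467 and 106 in libraries 1, 2 and 3. The tissue was the sciatic nerve, from which CD45+ immune cells had been sorted, and the donors were NOD.AireGW/+ mice with neuropathy, which carry a GW change in 1 copy of Aire, a gene needed for thymic tolerance, on the autoimmunity-prone NOD background. All libraries belonged to this group. Library 3 pooled 2 mice, whereas a single mouse gave library 1 and another library 2, and no control or treated group was analysed here, so every comparison is between cells of the same nerves. The age of the mice was not given in the labels.

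Tregs restrain other lymphocytes through the inhibitory receptor CTLA-4, through a high-affinity IL-2 receptor that takes up IL-2, and through cytokines such as IL-10 and activated TGF-β. In non-lymphoid tissues they also carry a repair program that includes amphiregulin, an epidermal growth factor family ligand, and receptors for alarmins. The lineage normally makes little IL-2 and few of the ligands by which helper T cells drive B cells and macrophages.

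Library 3 was the shallowest. Its Tregs summed to 228778 UMIs with a median of 1822.5 per cell, against 1547866 UMIs and a median of 3401 in library 1 and 1913373 UMIs and a median of 2703 in library 2. The mitochondrial share of Treg UMIs was low, with medians of 1.19%, 0.778% and 0.752%. RNA of antigen-presenting cells varied between libraries. Over 10 markers of macrophages and dendritic cells, Tregs summed to 7656, 15571 and 774 CPM (UMIs scaled to a common total of 1000000 over the summed cells), and the Foxp3-negative CD4 T cells described next to 8431, 7335 and 4747 CPM. Libraries shared 36, 7 and 14 cell barcodes in pairs, none of them among Tregs. Doublets were not called.

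Foxp3 UMIs were counted in 3 classes of cells. The first class, T cells with a Cd4 UMI, includes the Tregs with a Cd4 UMI, which were 221, 192 and 23 cells in libraries 1 to 3. The other classes lie outside the gate. A Foxp3 UMI was present in 29.3%, 20.6% and 11.7% of T cells with a Cd4 UMI and no Cd8 UMI, in 6.71%, 3.35% and 1.23% of CD8 T cells, and in 1.80%, 0.278% and 0% of B cells, whose median depths were 3176, 2562 and 1750.0 UMIs, 3962, 3293.5 and 2098 UMIs, and 3991.5, 3124 and 1752 UMIs. B cells, which should lack Foxp3, were cells with at least 2 Cd79a UMIs and no Cd3d, Cd3e or Cd3g UMI. Their share stands for background in cells without Cd3 RNA only. In library 3, 0 of 70 B cells allows a share of up to 5.13% (exact 95% interval, counting error only). The gate needs a Cd3 UMI, so this share does not measure the background within it. Of 1656 cells with Foxp3, 208 failed only for a Cd8 UMI, 136 only as dividing cells, 102 only for C1q and 57 only for Cd79a. Among the 908 Tregs, 409 had 1 Foxp3 UMI and 499 had more. At the C1q limit, 98 cells inside had 1 C1q UMI and 8 cells outside had 2.

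Tregs made up 8.71%, 5.66% and 6.91% of all cells kept in libraries 1 to 3 (7.09% ± 1.53, SD, n = 3 libraries), and 11.2%, 11.9% and 8.46% of T cells (10.5% ± 1.83). Set beside the Foxp3-negative CD4 T cells, they were 38.6% (exact 95% interval 35.3 to 41.9), 38.6% (35.9 to 41.4) and 37.9% (32.2 to 43.8) of the sum of both, or 38.4% ± 0.435. That denominator was asymmetric, since Foxp3-negative cells needed a Cd4 UMI and Tregs did not. With a Cd4 UMI needed in both, the share was 20.5% ± 8.82, with 436 Tregs left.

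To describe what else these cells expressed, UMIs were summed over Tregs and, in the same library, over 1449 Foxp3-negative CD4 T cells (533, 742 and 174), which passed the same gate with no Foxp3 UMI and at least 1 Cd4 UMI. In such sums, fewer cells that express a gene and less RNA per cell cannot be told apart. A Treg whose Foxp3 RNA was not captured counted as Foxp3-negative if it had a Cd4 UMI. How many such cells there were was not tested. The gate genes and Cd4 chose the cells, so their own test results are not reported. None of the 5 markers that follow was used by the gate.

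The marker genes set Tregs apart from Foxp3-negative CD4 T cells in all 3 libraries. Ikzf2 (chr1:69531214-69687245, minus strand, mm10) encodes Helios, a transcription factor common in Tregs. It was at 562, 395 and 704 CPM in Tregs of libraries 1, 2 and 3 and at 185, 131 and 176 CPM in Foxp3-negative CD4 T cells (log2 difference 1.63, SE 0.10, adjusted p = 3.3e-11, edgeR quasi-likelihood test). Each Treg library was above each Foxp3-negative one, and CD8 T cells averaged 81.5 CPM. Areg (chr5:91139599-91148432, plus strand), the amphiregulin gene, was at 590.5, 682 and 385 CPM against 161, 191 and 127 CPM (log2 difference 1.75, SE 0.10, adjusted p = 1.5e-11). The groups did not overlap for either gene. Itgae (chr11:73090583-73147446, plus strand) encodes the αE integrin CD103, which retains T cells at epithelia, and had 291, 154 and 153 CPM against 70.1, 35.7 and 20.2 CPM (log2 difference 2.10, SE 0.14, adjusted p = 1.6e-10). Tnfrsf9 (chr4:150914562-150946102, plus strand) encodes the costimulatory receptor 4-1BB, and had 563, 305 and 581 CPM against 117, 45.2 and 98.1 CPM (log2 difference 2.45, SE 0.12, adjusted p = 2.8e-13). It was the largest difference of the 5, a 5.45-fold one.

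Ccr8 (chr9:120092114-120094906, plus strand), a chemokine receptor of tissue Tregs, was the weakest of the 5. It had 345, 136 and 162 CPM in Tregs against 248, 69.0 and 121 CPM (log2 difference 0.60, SE 0.13, adjusted p = 0.00237). Tregs were higher within each library, but library 1 was high and library 2 low in both groups, so the groups overlapped. The call was lost without library 2, without the library term, after thinning, and with a Cd4 UMI needed in both groups, where log2 differences ran between 0.38 and 0.51. In Il10-positive Foxp3-negative CD4 T cells Ccr8 reached 421, 69.5 and 106 CPM.

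**Figure D1:**
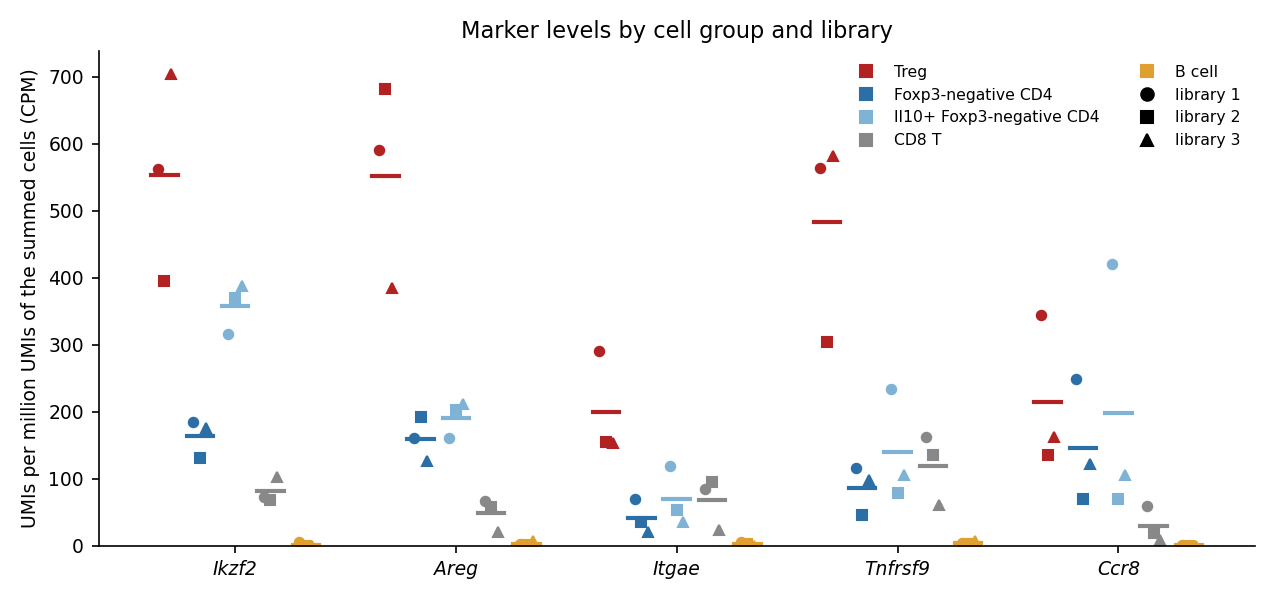
Levels of the 5 marker genes in CPM (y axis, linear) in 5 cell groups of each library, with a point per library and a bar at the mean. Ikzf2, Areg, Itgae and Tnfrsf9 were higher in Tregs than in Foxp3-negative CD4 T cells without overlap, B cells were near 0, and the Ccr8 points of both CD4 groups overlapped.

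Because a deeper cell has more chances to show a transcript, each cell was thinned to 1000 UMIs before cells were counted, which left out 54 Tregs, 140 Foxp3-negative CD4 T cells and 13 B cells. Ikzf2 was then seen in 47.9%, 36.7% and 45.6% of Tregs (43.4% ± 5.89), 14.7%, 11.4% and 11.4% of Foxp3-negative CD4 T cells and 0% of B cells. Areg was seen in 26.7%, 27.2% and 23.3% of Tregs (25.7% ± 2.09), against 9.52%, 8.07% and 6.71% and, in B cells, 0.472%, 0% and 1.49%. Most Tregs therefore showed no Areg transcript at this depth, and the Treg share was above that of Foxp3-negative cells in each library. Tnfrsf9 was seen in 29.1% ± 6.1 of Tregs and 5.59% ± 1.93 of Foxp3-negative cells, Itgae in 17.0% ± 6.06 and 2.51% ± 1.72, and Ccr8 in 16.1% ± 9.68 and 11.5% ± 6.14. Without thinning, the Treg shares were 69.1% for Ikzf2, 34.8% for Areg, 33.2% for Itgae, 48.3% for Tnfrsf9 and 31.4% for Ccr8. With 3 libraries no test of these shares was run.

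**Figure D2:**
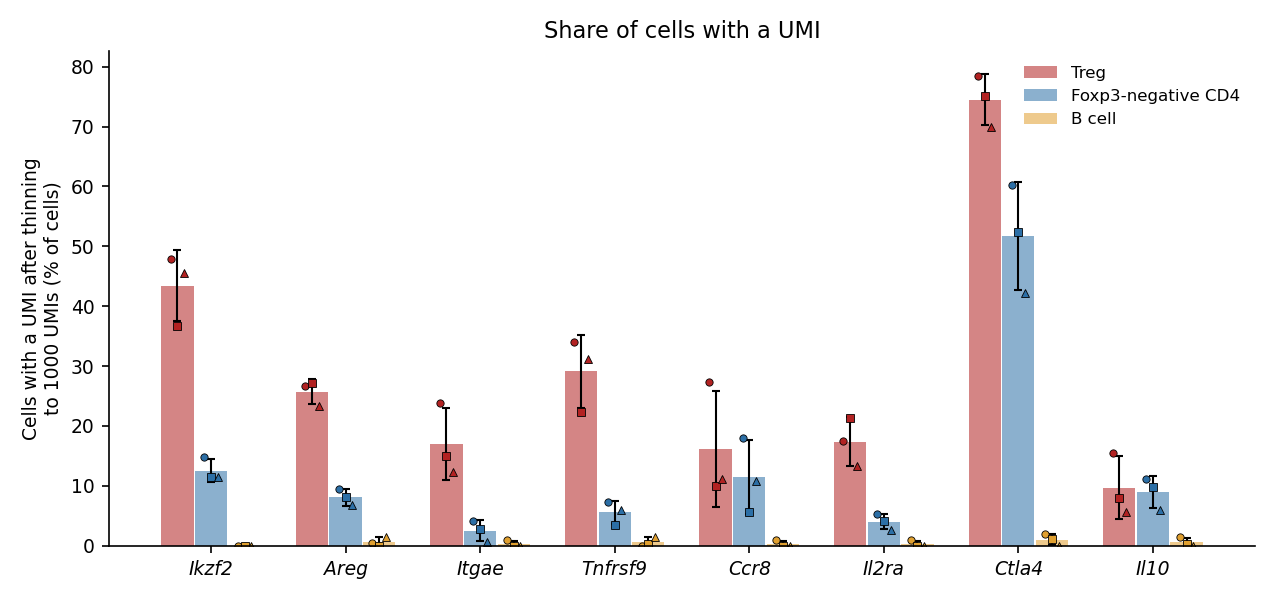
Percent of cells with a UMI of each gene after thinning to 1000 UMIs (y axis) in Tregs, Foxp3-negative CD4 T cells and B cells, as the mean (bar), SD over 3 libraries (error bar) and each library (point). Ctla4 was seen in 74.5% of Tregs and 51.7% of Foxp3-negative cells, and Il10 in 9.71% and 8.96%.

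The markers were spread unevenly over the Tregs. The 34, 47 and 11 Tregs with the most Areg, 10% of each library, held 71.4%, 66.9% and 77.3% of its UMIs in libraries 1, 2 and 3, and single cells held up to 47 of them. The top 10% for other markers held 32.4%, 35.3% and 38.5% for Ikzf2 and 52.1%, 56.6% and 53.4% for Tnfrsf9. For Itgae they held 49.8%, 52.2% and 77.1%, and for Ccr8 50.6%, 65.0% and 70.3%. Most Areg UMIs thus lay in few cells, although 42.4%, 39.4% and 22.6% of Tregs had at least 1, and Ikzf2 UMIs were spread more evenly. These shares were counted without thinning, so deeper cells can weigh more in the top 10%. After thinning, 83.2%, 67.5% and 70.0% of Tregs had at least 1 of the 5 markers, against 37.6%, 25.7% and 26.8% of Foxp3-negative CD4 T cells and 2.36%, 0.278% and 2.99% of B cells. At least 2 markers were seen in 47.3%, 30.7% and 35.6% of Tregs and in 12.0%, 4.45% and 6.71% of Foxp3-negative cells. All 5 were seen together, without thinning, in 40, 26 and 2 Tregs.

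Pairs of markers were counted in the thinned Tregs as a description. Tnfrsf9 and Il2ra, the gene of the IL-2 receptor α chain, were both seen in 8.57%, 7.57% and 7.78% of Tregs, where the product of their separate shares was 5.93%, 4.76% and 4.15%. Tnfrsf9 and Ccr8 were both seen in 13.0%, 3.79% and 7.78%, with products of 9.27%, 2.23% and 3.46%. Areg and Tnfrsf9 were both seen in 10.8%, 8.69% and 10.0%, with products of 9.06%, 6.05% and 7.26%. Ikzf2 and Areg were both seen in 13.0%, 10.2% and 13.3%, above the products of 12.8%, 9.99% and 10.6% but close to them in libraries 1 and 2. Only some pairs are given here, and shares above the product were not particular to them. Areg and Il10 were both seen in 3.49%, 2.00% and 2.22%, with products of 4.15%, 2.18% and 1.30%. Library 3 had 90 thinned Tregs, so its pairs rest on few cells.

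The markers were above the Foxp3-negative level also in Tregs with 1 Foxp3 UMI. Ikzf2 averaged 526 ± 117 CPM over libraries in Tregs with 1 Foxp3 UMI, 593 ± 217 CPM in those with 2 or more, and 164 ± 29.2 CPM in Foxp3-negative CD4 T cells. Areg averaged 433 ± 133, 642 ± 125 and 160 ± 32.3 CPM, and Tnfrsf9 397 ± 121, 555 ± 200.4 and 86.6 ± 37.0 CPM, in the same order. Both ranges of Foxp3 UMIs lay above the Foxp3-negative mean, although cells with more Foxp3 were also deeper (medians of 3978, 3345 and 2093 UMIs against 2614, 2121 and 1670.0). The part of depth in their difference was not tested.

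For the genes that set Tregs apart, the bases just before the start of transcription are shown, since they hold the sequence nearest to where their transcription begins. The sequences are RefSeq promoters of build GRCm38.p6, 250 bases long and ending at the start, read 5′ to 3′ on the gene's strand. Capitals mark matches, on either strand, to 5 motifs: the forkhead motif TGTTTAC, the AP-1 motif TGANTCA, the Runx motif TGTGGT, the STAT motif TTCNNNGAA and the Ets motif CCGGAAGT. Areg and Tnfrsf9 are markers, Ecm1 and Il1r2 were higher in Tregs, and Ccl3 was lower. The second of the 2 Tnfrsf9 starts in the table is shown, and the first had no match. The windows of Ccr8, Il2ra, Rln3, Il21, Il2, Tnfsf8 and Tbc1d4 were also searched, had no match and are not shown. Those of Ifng, which was lower in Tregs, and of the gate gene Foxp3 were searched too and are not shown. Ifng had a STAT match that began 249 bases before the start. The second of the 2 Foxp3 starts had a STAT match 139 bases before it, and the first had no match.

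Areg, chr5:91139349-91139598, plus strand: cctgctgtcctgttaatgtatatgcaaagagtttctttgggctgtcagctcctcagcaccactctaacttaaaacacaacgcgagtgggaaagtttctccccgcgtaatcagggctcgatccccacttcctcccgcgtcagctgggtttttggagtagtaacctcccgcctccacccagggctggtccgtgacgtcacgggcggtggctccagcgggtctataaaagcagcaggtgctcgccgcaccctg
Tnfrsf9, chr4:150927749-150927998, plus strand: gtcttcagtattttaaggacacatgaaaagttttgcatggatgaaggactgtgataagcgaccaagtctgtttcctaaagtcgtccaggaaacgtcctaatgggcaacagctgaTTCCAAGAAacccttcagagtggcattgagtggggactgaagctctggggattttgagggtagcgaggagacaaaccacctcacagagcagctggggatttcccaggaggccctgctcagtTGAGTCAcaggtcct
Ecm1, chr3:95739570-95739819, minus strand: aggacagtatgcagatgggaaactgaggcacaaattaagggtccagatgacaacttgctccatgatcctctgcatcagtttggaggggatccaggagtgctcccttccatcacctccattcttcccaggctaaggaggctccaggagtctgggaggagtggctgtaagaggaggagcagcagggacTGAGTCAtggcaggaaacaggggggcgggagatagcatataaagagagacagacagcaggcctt
Il1r2, chr1:40085843-40086092, plus strand: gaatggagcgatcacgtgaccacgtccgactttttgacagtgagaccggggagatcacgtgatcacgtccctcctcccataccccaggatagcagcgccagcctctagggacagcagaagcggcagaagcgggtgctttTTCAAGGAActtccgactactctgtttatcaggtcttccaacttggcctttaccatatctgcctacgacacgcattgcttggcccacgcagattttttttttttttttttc
Ccl3, chr11:83649379-83649628, minus strand: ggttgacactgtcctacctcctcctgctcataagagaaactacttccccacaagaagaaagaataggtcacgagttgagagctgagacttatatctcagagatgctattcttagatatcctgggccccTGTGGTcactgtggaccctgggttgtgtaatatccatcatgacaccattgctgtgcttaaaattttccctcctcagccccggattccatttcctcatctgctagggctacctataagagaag

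The Tnfrsf9 window had an AP-1 match that began 15 bases before the start and a STAT match 136 bases before it. Ecm1 had an AP-1 match 64 bases, Il1r2 a STAT match 111 bases and Ccl3 a Runx match 122 bases before the start, and Areg had no match to these letters. The forkhead motif was in 2.58% of 388 promoters of genes higher in Tregs, 1.81% of 331 promoters of genes lower in Tregs and 3.17% of all 32851 promoters. The STAT motif was in 9.02%, 6.65% and 7.02%, the AP-1 motif in 6.44%, 5.44% and 6.75%, the Runx motif in 15.2%, 13.0% and 14.1%, and the Ets motif in 2.06%, 3.63% and 2.88%. These shares are descriptions of letters in a short window, with no binding measured. Ikzf2, Itgae and Cd40lg were not in the promoter table.

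Across all genes, Tregs differed from Foxp3-negative CD4 T cells in 739 of 8982 genes tested at an adjusted p under 0.05, which is 8.23%. Of these, 386 (4.3%) were higher and 353 (3.93%) lower in Tregs, and the median log2 difference over all genes tested was -0.016. Counts of list members called in this comparison, given below, stand beside these shares. The genes tested included 5 that had chosen the cells, and 2 of those are among the calls, 1 higher and 1 lower. Without the library term in the fit 43 genes were called, 20 higher and 23 lower. Without library 2, which held the most cells, 236 were called. Of 100 called genes named here or picked by the naming rule, 24 kept their call in each alternative in which they were tested, among them Ikzf2, Areg, Itgae, Tnfrsf9, Il2ra, Ikzf4, Gpr83, Tcf7, Il2, Il21, Ifng, Tnfsf8, Cd40lg and Fasl. Another 32 lost it only without the library term, and the other 44 in at least 1 further alternative, 38 of them with a library left out.

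**Figure D3:**
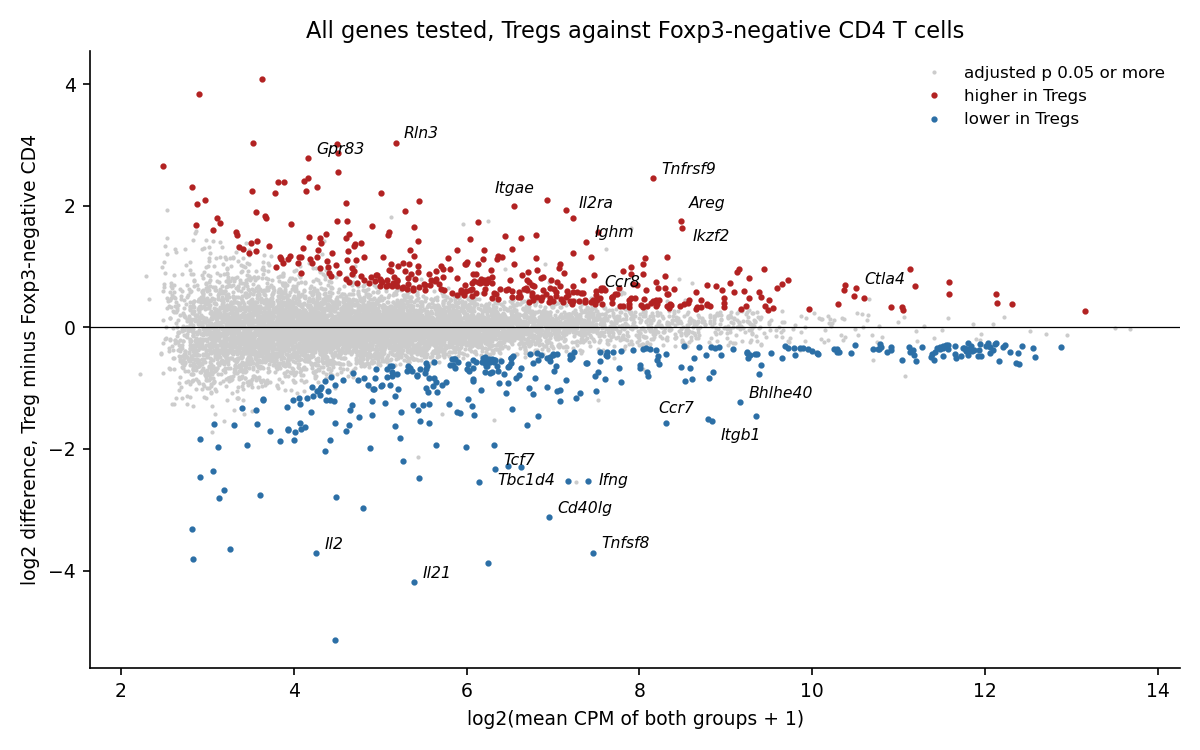
Log2 difference between Tregs and Foxp3-negative CD4 T cells (y axis) against the mean level of both groups as log2(CPM + 1) (x axis), a point per gene tested, without the gate genes and Cd4. Points in red (higher in Tregs) and blue (lower) had an adjusted p under 0.05, with Rln3, Gpr83 and Tnfrsf9 among the highest and Il21, Il2, Tnfsf8 and Cd40lg among the lowest of those labelled.

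Genes of Treg identity were higher with 1 exception. Of 12 listed genes, 11 were called higher and 1 lower, with a median log2 difference of 1.03. Il2ra was at 220.3, 229 and 245 CPM in Tregs and 59.6, 66.2 and 26.0 CPM in Foxp3-negative CD4 T cells (log2 difference 1.93, SE 0.16, adjusted p = 4.2e-08). Its Treg levels were close together in the 3 libraries and all above the other group. Ikzf4, the gene of the Foxp3 partner Eos, was at 48.5, 49.1 and 61.2 CPM against 13.7, 8.63 and 5.77 CPM (log2 difference 2.20, SE 0.24, adjusted p = 7e-07). Gpr83, a G protein-coupled receptor gene used as a Treg marker, was at 36.8, 25.1 and 30.6 CPM against 3.69, 5.34 and 0 CPM, that is 57, 48 and 7 UMIs against 7, 13 and 0 (log2 difference 2.78, SE 0.36, adjusted p = 8.3e-06). Lrrc32, which encodes GARP, the surface anchor of latent TGF-β, differed by a log2 of 2.45 (adjusted p = 4.6e-05). The more widely expressed members differed less: Ctla4 by 0.64 (adjusted p = 3.9e-05), from 1969.8, 1747 and 1674 CPM in Tregs against 1478, 1051 and 822 CPM, Tnfrsf18 (GITR) by 0.65 (adjusted p = 1.2e-05) and Tnfrsf4 (OX40) by 0.62 (adjusted p = 1.7e-05). The Ctla4 call was lost without library 2. Izumo1r (folate receptor 4) and Capg, an actin-capping protein gene, differed by a log2 of 0.91 (adjusted p = 9.4e-06) and 1.16 (adjusted p = 4.3e-08). The exception was Nrp1, a receptor often used to mark thymus-derived Tregs, at 86.6, 53.8 and 30.6 CPM against 128, 78.1 and 66.4 CPM (log2 difference -0.64, SE 0.15, adjusted p = 0.0059). It was lower in Tregs of each library, although the groups overlapped, and its call was lost in 6 of 11 alternatives.

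The tissue and repair list divided. Of 18 genes 16 were tested, 7 were higher, 1 lower and 8 not called, with a median log2 difference of 0.47. Beside Areg, Itgae, Tnfrsf9 and Ccr8, the decoy IL-1 receptor gene Il1r2 was higher, at 65.3, 43.9 and 74.3 CPM against 8.44, 18.5 and 17.3 CPM (log2 difference 1.91, SE 0.29, adjusted p = 0.00077), with the call lost without library 3. Nfil3, a transcription factor gene, and Il18r1, the IL-18 receptor gene, differed by a log2 of 0.40 (adjusted p = 0.021) and 0.55 (adjusted p = 0.0495). Both calls were lost without library 2, and they were kept in 5 and 2 of 11 alternatives. Irf4, a factor of effector T cells and Tregs, was lower, at 27.8, 35.5 and 17.5 CPM against 64.3, 87.5 and 31.7 CPM (log2 difference -1.28, SE 0.18, adjusted p = 2.1e-05), in each library but with overlap. Il1rl1, the receptor gene for the alarmin IL-33, was seen in 3.58%, 4.07% and 2.83% of Tregs and 1.50%, 1.62% and 1.15% of Foxp3-negative cells, whose median depths were 2981, 2480.5 and 1702.5 UMIs, and in 0.450%, 0% and 0% of B cells, and its log2 difference of 0.66 (adjusted p = 0.459) did not pass the test. Gata3 differed by a log2 of -0.31 (adjusted p = 0.346) and Klrg1 by 1.24 (adjusted p = 0.178), neither called.

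Suppressive mediators were called higher in 3 of 11 tested genes and lower in none, with a median log2 difference of 0.27. Over all genes tested 4.3% were called higher and 3.93% lower. Fgl2, a secreted suppressive protein gene, was at 359, 213 and 157 CPM in Tregs against 167, 94.1 and 46.2 CPM (log2 difference 1.15, SE 0.12, adjusted p = 3e-07), higher within each library although the groups overlapped. Itgav and Itgb8, whose products pair as an integrin that activates TGF-β, differed by a log2 of 0.81 (adjusted p = 0.023) and 0.71 (adjusted p = 0.0223). Both of those calls were lost without library 2, and they were kept in 7 and 4 of 11 alternatives. Il10 did not set the groups apart, with 189, 72.1 and 65.6 CPM in Tregs against 162, 121 and 72.1 CPM (log2 difference -0.26, SE 0.18, adjusted p = 0.536). Tregs were higher in library 1 and lower in libraries 2 and 3, and without library 2 the sign turned, to a log2 difference of 0.13, while without library 1 it was called lower, at -0.69. Gzmb (granzyme B) was at 284, 351 and 503 CPM against 81.2, 176 and 37.5 CPM, without overlap, but its log2 difference of 1.63 missed the threshold (SE 0.56, adjusted p = 0.383), though 3 of 11 alternatives called it. Tgfb1, Entpd1 (CD39) and Nt5e (CD73) differed by a log2 of 0.26 (adjusted p = 0.124), 0.099 (adjusted p = 0.847) and 0.0087 (adjusted p = 0.998).

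Among checkpoint and costimulatory receptors, 8 of 17 tested genes were higher and 5 lower, with a median log2 difference of 0.29. Tnfrsf9, Tnfrsf18 and Tnfrsf4 of the tumor necrosis factor receptor family were among the higher genes. Tnfrsf1b (TNFR2) and Cd27 belong to the same family and differed by a log2 of 0.65 (adjusted p = 0.00031) and 0.85 (adjusted p = 1.7e-06). The inhibitory receptor gene Tigit was at 888, 615 and 922 CPM against 517, 396 and 661 CPM (log2 difference 0.58, SE 0.09, adjusted p = 0.00013), in each library but with overlap, and its call was lost without library 2. Cd200, a surface ligand of the inhibitory receptor Cd200r1, was lower, at 186, 107 and 197 CPM against 403, 392 and 615 CPM (log2 difference -1.58, SE 0.14, adjusted p = 7e-06), while Cd200r1 was called higher, by a log2 of 0.75 (adjusted p = 0.038), and kept the call in 3 of 11 alternatives. Cd28, the main costimulatory receptor, was lower, at a log2 of -0.84 (adjusted p = 9.5e-07). Pdcd1 (PD-1) was called lower, at a log2 of -0.36 (adjusted p = 0.0322), and lost the call in 10 of 11 alternatives. Lag3 differed by a log2 of 0.27 (adjusted p = 0.107).

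Cytokine receptor genes and STAT5 feedback genes gave 7 higher and 3 lower of 21 tested, with a median log2 difference of 0.096. The IL-2 receptor β chain gene Il2rb was higher by a log2 of 0.45 (adjusted p = 0.00339), with the call lost without library 1, and the shared γ chain gene Il2rg was at 0.082, not called. Il7r, the receptor gene for the survival cytokine IL-7, was lower, at 319, 197 and 279.7 CPM in Tregs against 524, 369 and 514 CPM (log2 difference -0.88, SE 0.10, adjusted p = 7.8e-07). Of the chains of the TGF-β receptor, Tgfbr2 was lower, at a log2 of -0.99 (adjusted p = 1.7e-05). Tgfbr1 was called higher, by a log2 of 1.05 (adjusted p = 0.00175), and lost the call in 4 of 11 alternatives, among them DESeq2, thinning and the fit without library 2. Ifngr1, the ligand-binding chain of the interferon-γ receptor, was at 1798, 1389.7 and 1823 CPM against 1168, 732 and 1082 CPM (log2 difference 0.70, SE 0.09, adjusted p = 2.8e-06). Il4ra was higher by a log2 of 0.77 (adjusted p = 0.00051), and Il21r, the receptor gene for IL-21, by 0.45 (adjusted p = 0.00355). Il6ra was lower, at a log2 of -0.80 (adjusted p = 0.00417). The calls of Il4ra, Il21r and Il6ra were lost without library 2. The feedback genes Cish, Socs1, Socs2 and Socs3 were between -0.27 and 0.32, none called.

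Homing, egress and residency genes gave 5 higher and 7 lower of 20 tested, with a median log2 difference of -0.25. The lower genes were Ccr7, S1pr1, Itgb1, Itga4, Cxcr6, Klf2 and Gpr183, and the higher ones Ccr2, Ccr4, Cxcr3, S1pr4 and Selplg. Ccr7, the receptor that guides T cells to lymph nodes, was at 172, 166 and 319 CPM in Tregs against 455, 383 and 1160.0 CPM (log2 difference -1.51, SE 0.12, adjusted p = 4.1e-08), and S1pr1, the sphingosine phosphate receptor of egress, at 125, 108 and 131 CPM against 297, 190.2 and 225 CPM (log2 difference -1.05, SE 0.12, adjusted p = 1.5e-06). Itgb1, the integrin β1 chain gene, was at 338, 229 and 149 CPM against 1018, 588 and 429.9 CPM (log2 difference -1.54, SE 0.10, adjusted p = 6.1e-11), and its partner Itga4 was lower, at a log2 of -0.79 (adjusted p = 1.7e-05). Ccr2, a receptor of inflammatory chemokines, was higher, at 434, 246 and 205 CPM against 281, 108 and 69.3 CPM (log2 difference 0.92, SE 0.13, adjusted p = 4.7e-05), in each library but with overlap. Selplg, a selectin ligand gene, was higher by a log2 of 0.58 (adjusted p = 0.00045), Cxcr3 by 0.35 (adjusted p = 0.038), Ccr4 by 0.66 (adjusted p = 0.0469) and S1pr4, another sphingosine phosphate receptor gene, by 0.46 (adjusted p = 0.0349). The calls of all 5 higher genes were lost without library 2, and S1pr4 kept its call in 3 of 11 alternatives. Cxcr6 was called lower, at a log2 of -0.85 (adjusted p = 0.0201), but Tregs were higher in library 3, and the call was lost without library 2. In library 3 Tregs were also higher for Klf2 (428 against 395 CPM) and lower for Ccr4 (26.2 against 31.7 CPM). Klf2 kept its call in 6 of 11 alternatives, and the Ccr7 call was lost after thinning and without the library term.

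Transcription factor genes were mostly not called, with 1 higher, 6 lower and 20 not called of 27 tested, and a median log2 difference of -0.14. Tcf7, a factor of stem-like T cells, was at 28.4, 28.2 and 26.2 CPM against 149, 131 and 115 CPM (log2 difference -2.33, SE 0.16, adjusted p = 1.6e-10). Its Treg levels were nearly the same in the 3 libraries. Bach2 and Tox2 were lower, at a log2 of -1.61 (adjusted p = 0.00014) and -1.45 (adjusted p = 0.00196), and the Tox2 call was lost without library 2 and without library 3. Bhlhe40, a factor of cytokine-producing T cells, was at 369.5, 304 and 389 CPM against 853, 674 and 845 CPM (log2 difference -1.22, SE 0.09, adjusted p = 9.1e-10). Maf, a factor of IL-10 and IL-21 production, was called higher by a log2 of 0.40 (adjusted p = 0.0239), with the call lost in 8 of 11 alternatives.

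Most effector cytokines and helper ligands that were tested were lower in Tregs than in Foxp3-negative CD4 T cells. Of 22 listed genes 16 were tested, 10 were lower, 1 higher and 5 not called, with a median log2 difference of -2.03, against -0.016 over all genes tested. Il21, the helper cytokine gene, gave 7, 12 and 0 UMIs in Tregs and 137, 276 and 17 UMIs in Foxp3-negative CD4 T cells, or 4.52, 6.27 and 0 CPM against 72.3, 113 and 49.1 CPM (log2 difference -4.19, SE 0.26, adjusted p = 2e-11). Il2 gave 3, 7 and 0 UMIs against 78, 75 and 11 UMIs (log2 difference -3.71, SE 0.37, adjusted p = 1.2e-07). In library 2 the 7 UMIs came from 0.214% of 467 Tregs. Cd40lg, the ligand by which helper T cells license B cells, was at 32.9, 21.4 and 13.1 CPM against 248, 181 and 242 CPM (log2 difference -3.12, SE 0.16, adjusted p = 1.7e-12), and Tnfsf8 (CD30 ligand) at 28.4, 23.0 and 4.37 CPM against 392, 209.5 and 398 CPM (log2 difference -3.71, SE 0.26, adjusted p = 0.00019). Neither overlapped. Ifng was at 41.3, 61.7 and 48.1 CPM against 264, 302 and 297 CPM (log2 difference -2.53, SE 0.13, adjusted p = 1.7e-12). Fasl, Lta, Tnf and the chemokine gene Ccl3 were lower, at a log2 of -1.93 (adjusted p = 5.6e-09), -1.83 (adjusted p = 1.3e-06), -1.28 (adjusted p = 0.00051) and -2.28 (adjusted p = 3.4e-07). The Tnf call was lost without library 1. Ccl4 was also called lower, at 445, 307 and 105 CPM against 691, 676 and 115 CPM (log2 difference -0.85, SE 0.13, adjusted p = 0.00021). Its groups overlapped, and its call was lost without library 2. The genes Ltb and Ccl5 differed by a log2 of 0.18 (adjusted p = 0.408) and -0.80 (adjusted p = 0.425) and were not called.

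Members of this list stood apart in 2 ways. Tnfsf11 (RANK ligand) was at 53.0, 42.9 and 4.37 CPM in Tregs against 262, 197 and 358 CPM, without overlap, and its log2 difference of -2.54 missed the threshold (SE 0.49, adjusted p = 0.164), though 9 of 11 alternatives called it. Its shares of cells with a UMI were 14.9%, 8.78% and 0.943% in Tregs and 34.1%, 25.3% and 22.4% in Foxp3-negative cells, and 0.901%, 0.278% and 0% in B cells. Il17a was called higher in Tregs (log2 difference 1.12, SE 0.29, adjusted p = 0.0129), from 43, 60 and 0 UMIs in 0.597%, 0.642% and 0% of Tregs and 29, 28 and 0 UMIs in 0.938%, 0.539% and 0% of Foxp3-negative cells, beside 0.450%, 0% and 0% of B cells. That call rests on very few cells with many transcripts, and it was lost without library 2.

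**Figure D4:**
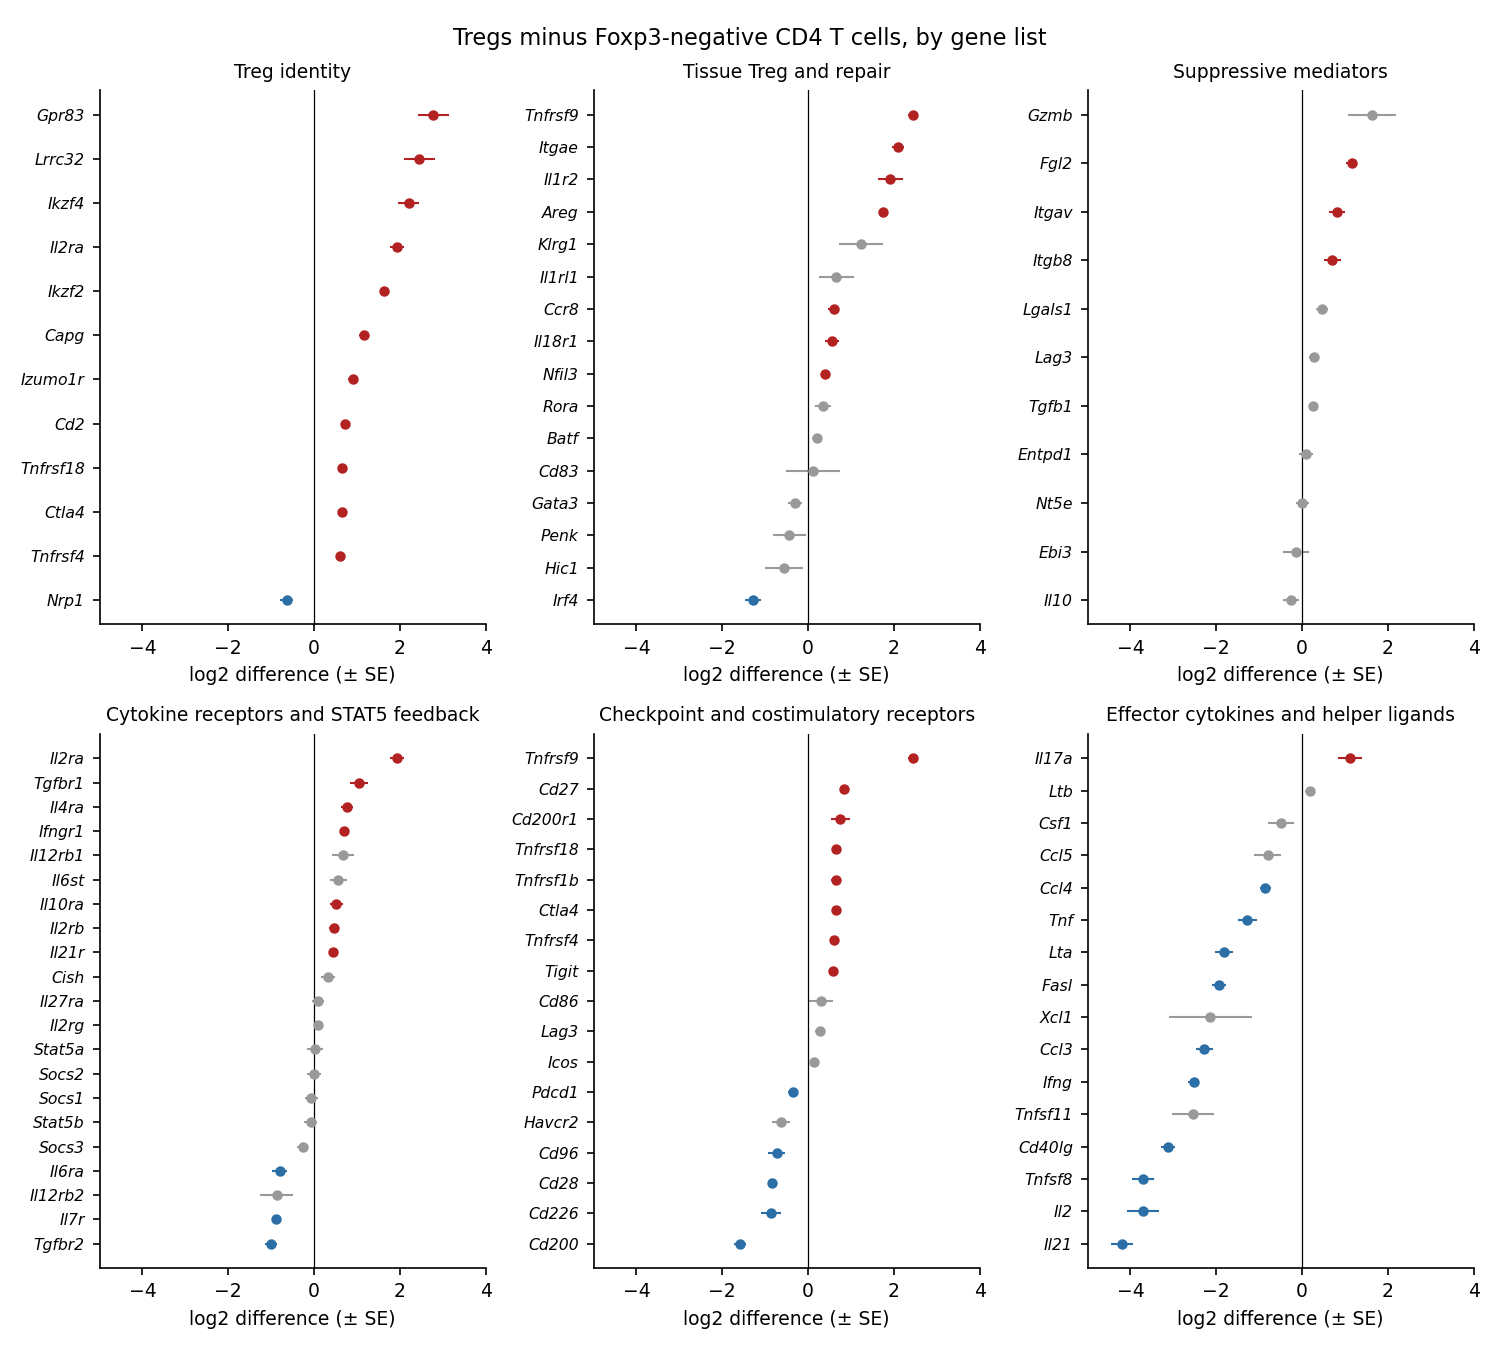
Log2 difference between Tregs and Foxp3-negative CD4 T cells with its SE (x axis) for the tested members of 6 gene lists, a row per gene, without the gate genes. Red and blue points had an adjusted p under 0.05 and gray points did not. Treg identity genes lay to the right except Nrp1, and effector cytokines and helper ligands to the left except Il17a and Ltb.

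Further lists were set beside these. Interferon-stimulated genes gave 2 higher (Ifi27l2a by 0.55 and Rtp4 by 0.63, the latter kept in 4 of 11 alternatives) and 0 lower of 10. Of genes that rise on tissue dissociation, Junb, Dusp1 and Ier2 were called lower, at a log2 of -0.30, -0.34 and -0.32, and 6 of 9 were not called. Those calls were kept in 6, 6 and 2 of 11 alternatives, and were lost without library 2. Ribosomal protein genes were lower in 66 of 90 and higher in none, with a median log2 difference of -0.35, and 12 of 13 mitochondrially encoded genes were lower, with a median of -0.40. No macrophage and dendritic cell marker of 10 was called. The 6 Schwann cell and myelin markers summed to 172, 133 and 131 CPM in Tregs against 105, 110.1 and 104 CPM in Foxp3-negative cells. S100b was at 0 UMIs in both groups. Of the 2 of them tested, Ncmap was at 121, 80.0 and 69.9 CPM against 19.0, 33.3 and 43.3 CPM and missed the threshold (log2 difference 1.69, adjusted p = 0.0981), though 8 of 11 alternatives called it. Mbp was called lower, at a log2 of -0.61 (adjusted p = 0.0167), although Tregs were higher in library 3, and lost the call in 6 of 11 alternatives. The 8 markers of NK and gamma delta cells summed to 856, 649.6 and 826 CPM in Tregs against 742, 882 and 413 CPM. Of the 3 tested, with a median log2 difference of 0.16, Gzma was called lower, at 8.40, 9.41 and 8.74 CPM against 63.8, 21.4 and 5.77 CPM (log2 difference -2.04, SE 0.36, adjusted p = 0.00158), with Tregs higher in library 3. That call was lost in 4 of 7 alternatives, among them the fit without library 1. The part of these markers in the comparison was not tested. Of 7 dividing-cell genes tested 0 were called. The gate had removed cells with a Mki67 or Top2a UMI from both groups, so this result was partly set by it.

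Transcripts of the immunoglobulin μ chain were also higher in Tregs. Ighm was at 319, 234 and 188 CPM in Tregs against 122, 89.6 and 43.3 CPM (log2 difference 1.41, SE 0.13, adjusted p = 2.3e-08), and was seen in 50.4%, 45.6% and 27.4% of Tregs and 18.0%, 17.1% and 6.90% of Foxp3-negative cells, against 65.8%, 56.1% and 57.1% of B cells. Igkc, a light chain gene, was at 62.0, 38.7 and 48.1 CPM against 30.6, 15.6 and 28.9 CPM (log2 difference 1.05, SE 0.20, adjusted p = 0.00087), with the call lost without library 2. The 7 B cell markers summed to 397, 289 and 245 CPM in Tregs, 171, 115 and 72.1 CPM in Foxp3-negative cells and 13839, 18143 and 4884 CPM in B cells. In Tregs, Ms4a1 (CD20) was at 1.94, 0.523 and 4.37 CPM and Cd79b at 7.11, 4.18 and 4.37 CPM. The gate had already removed cells with a Cd79a UMI from both groups, so low levels of these 2 B cell genes were partly set by it. With all cells that held a Ms4a1, Cd79b, Lyz2, Apoe or C1q UMI left out, the Ighm log2 difference was 1.50. The source of the immunoglobulin transcripts was not tested.

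Outside the lists, the naming rule took the 10 largest differences in each direction among called genes with at least 50 CPM in the higher group. The higher genes were Rln3, Ecm1, Slc16a3, Pglyrp1, Morrbid, Igsf23, Arl5a, Pvrig, Arl5c and Matk. Rln3, the relaxin-3 gene, was at 67.2, 86.2 and 39.3 CPM in Tregs against 6.86, 11.9 and 0 CPM (log2 difference 3.04, SE 0.24, adjusted p = 2.7e-09). Ecm1, an extracellular matrix protein gene, was at 68.5, 69.0 and 69.9 CPM against 13.7, 17.3 and 17.3 CPM (log2 difference 2.07, SE 0.20, adjusted p = 8.5e-08), with Treg levels almost equal across libraries. Slc16a3, a lactate transporter gene, was at 145, 63.2 and 262 CPM against 43.2, 16.8 and 26.0 CPM (log2 difference 1.99, SE 0.19, adjusted p = 7e-07). The long noncoding RNA Morrbid and Pvrig, the gene of an inhibitory receptor, differed by a log2 of 1.73 (adjusted p = 4.2e-08) and 1.56 (adjusted p = 3e-05).

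The lower genes were Spp1, Tbc1d4, Nrgn, Spry1, Themis, Bcl2, Ehd3, Gpm6b, Mir155hg and Shld1. Spp1, the osteopontin gene, was at 32.3, 16.7 and 4.37 CPM in Tregs against 163, 94.5 and 107 CPM (log2 difference -2.54, SE 0.19, adjusted p = 9.1e-10). Its log2 difference was between -3.02 and -1.88 in all 11 alternatives, and the call was lost in 1 of them, where cells with B cell or macrophage UMIs were left out and the log2 difference was -3.02 (adjusted p = 0.0919). Tbc1d4, a regulator of vesicle traffic, was at 58.8, 42.9 and 26.2 CPM against 321, 235 and 179 CPM (log2 difference -2.52, SE 0.14, adjusted p = 2.2e-12). The survival gene Bcl2 was at 28.4, 28.2 and 13.1 CPM against 127, 82.6 and 98.1 CPM (log2 difference -1.97, SE 0.18, adjusted p = 5.4e-08). Themis, a T cell receptor signaling gene, and Spry1, a feedback inhibitor of growth factor signaling, were lower, at a log2 of -2.20 (adjusted p = 9.4e-08) and -2.30 (adjusted p = 7.3e-10).

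Variable segments of the T cell receptor were compared as gene counts. Of 60 tested, 4 were higher and 10 lower in Tregs, against 8.23% called over all genes. Trbv2 was at 58.8, 45.5 and 61.2 CPM in Tregs against 22.7, 27.1 and 20.2 CPM (log2 difference 1.05, SE 0.20, adjusted p = 0.00103). Trbv13-1 was at 134, 92.0 and 39.3 CPM against 264, 171 and 109.7 CPM (log2 difference -1.03, SE 0.13, adjusted p = 4.9e-06) and Trbv13-2 at 137, 149 and 144 CPM against 216, 241 and 433 CPM (log2 difference -0.90, SE 0.15, adjusted p = 0.00145). These families hold near-identical members whose reads could be split by the authors' counting. Receptor sequences were not used here, and these genes were named after their values were seen.

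To set Tregs against other CD4 T cells that express Il10, they were compared with 172 Foxp3-negative CD4 T cells with at least 1 Il10 UMI and no Il21 UMI (72, 87 and 13 in libraries 1 to 3). Tregs had higher Areg, Tnfrsf9 and Itgae, and had lower Tnfsf8 and Ifng. Of 3876 genes tested, 120 (3.1%) were called, 61 (1.57%) higher and 59 (1.52%) lower in Tregs, with a median log2 difference of 0.016 over all genes tested. Library 3 gave 28425 UMIs from 13 cells. Leaving out library 1, 2 or 3 gave 58, 56 and 217 calls, and 7 genes were called without the library term. The gate genes, Cd4, Il10 and Il21 chose the cells, so their own test results are not reported. The genes tested included 6 of them, and 3 are among the calls, 1 higher and 2 lower. Both comparisons share the same Tregs, so their values stand side by side and are not independent.

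Of the repair list 5 of 11 tested genes were higher and 0 lower, with a median log2 difference of 0.66. Areg was at 590.5, 682 and 385 CPM in Tregs and 160.1, 202 and 211 CPM in Il10-positive Foxp3-negative cells (log2 difference 1.73, SE 0.19, adjusted p = 9e-13), Tnfrsf9 at 233, 79.0 and 106 CPM in the latter (log2 difference 1.68, SE 0.20, adjusted p = 3.9e-11) and Itgae at 119, 53.7 and 35.2 CPM (log2 difference 1.45, SE 0.26, adjusted p = 2.5e-05). None of the 3 overlapped. After thinning to 1000 UMIs per cell the Tnfrsf9 and Itgae calls were lost, at log2 differences of 0.64 and 1.78, and without the library term the calls of all 3 were lost. Il18r1 was at 128, 122 and 209.8 CPM against 50.3, 22.1 and 0 CPM (log2 difference 2.04, SE 0.34, adjusted p = 4e-06), with the call lost after thinning. Rora was called at 1.12 (adjusted p = 0.0456) but kept its call in 1 of 11 alternatives. Of the identity list 1 of 10 tested genes was called, Ikzf4 at 1.82 (adjusted p = 0.0291), with the call kept in 3 of 7 alternatives, and the list's median was 0.38. Ikzf2 was at 316, 369.8 and 387 CPM in Il10-positive Foxp3-negative cells, and its log2 difference of 0.55 missed the threshold (adjusted p = 0.0545, approximate 95% interval 0.21 to 0.89). Il2ra and Ctla4 were at 0.53 (adjusted p = 0.267) and -0.34 (adjusted p = 0.117). Ikzf2 and Il2ra averaged 357 and 136 CPM in Il10-positive Foxp3-negative cells, against 164 and 50.6 CPM in all Foxp3-negative CD4 T cells. Whether Tregs without a captured Foxp3 UMI were among the Il10-positive cells was not tested.

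Effector genes were lower in Tregs here too, with 6 of 9 tested genes lower and 0 higher, and a median log2 difference of -1.22. Ccl3 was at 46.5, 39.7 and 4.37 CPM in Tregs against 393, 382 and 0 CPM (log2 difference -3.13, SE 0.24, adjusted p = 3.5e-22), with 0 UMIs in the 13 cells of library 3, where Tregs were the higher group. Tnfsf8 was at 302, 85.3 and 281 CPM in Il10-positive Foxp3-negative cells and Ifng at 160.1, 186 and 246 CPM, and Tregs were lower, at a log2 of -2.92 (adjusted p = 3.8e-08) and -1.79 (adjusted p = 1.1e-07). Among receptors, Lag3 was at 858, 510.1 and 551 CPM in Tregs against 1615, 1192 and 1372 CPM (log2 difference -1.09, SE 0.15, adjusted p = 3.1e-09) and Cxcr6 at 228, 101 and 114 CPM against 718, 247 and 246 CPM (log2 difference -1.42, SE 0.20, adjusted p = 1.3e-08). The Cxcr6 call was lost without library 1. Cd200 was lower, at a log2 of -1.14 (adjusted p = 9.1e-06). Maf was called lower, at a log2 of -0.57 (adjusted p = 0.0335), with Tregs higher in library 3, and kept the call in 3 of 11 alternatives.

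Outside the lists, the 10 highest genes in Tregs were Gramd3, Cd7, Rln3, Ctla2a, Ecm1, Hopx, Iigp1, Emb, Pglyrp1 and Morrbid, and the 10 lowest Spry1, Lztfl1, Osgin1, Sccpdh, Tbc1d4, Baz1a, Rbpj, Lpgat1, Spock2 and Gpm6b. Of these, Lztfl1, Sccpdh and Tbc1d4 kept their call in each alternative that tested them. Hopx, a homeodomain protein gene, was at 96.3, 102 and 170.5 CPM in Tregs against 54.9, 19.0 and 70.4 CPM (log2 difference 1.53, SE 0.35, adjusted p = 0.00208), with the call lost without library 2. Lztfl1, which encodes a ciliary transport regulator, was at 80.8, 48.6 and 52.5 CPM against 357, 183 and 387 CPM (log2 difference -2.11, SE 0.23, adjusted p = 4e-13), and Rbpj, the DNA-binding partner of Notch, at 115, 70.0 and 61.2 CPM against 261, 231 and 246 CPM (log2 difference -1.48, SE 0.23, adjusted p = 3.2e-07). Of 9 tested genes of the dissociation list, 1 was higher, 1 lower and 7 not called, with a median log2 difference of -0.20. The higher one was the early response gene Atf3, by a log2 of 2.84 (adjusted p = 1.5e-11). The lower one was Dusp1, at a log2 of -0.58 (adjusted p = 0.00804), which kept its call in 4 of 11 alternatives. The macrophage gene Lyz2 was also higher, at 974, 384 and 48.1 CPM against 398, 189.6 and 0 CPM (log2 difference 1.20, SE 0.19, adjusted p = 1e-06), with the call lost without library 1. It was the 1 marker called of 7 macrophage and dendritic cell markers tested. The 10 markers of that list summed to 7656, 15571 and 774 CPM in Tregs and 7409.7, 7371 and 18927 CPM in Il10-positive Foxp3-negative cells, and their part in the comparison was not tested.

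**Figure D5:**
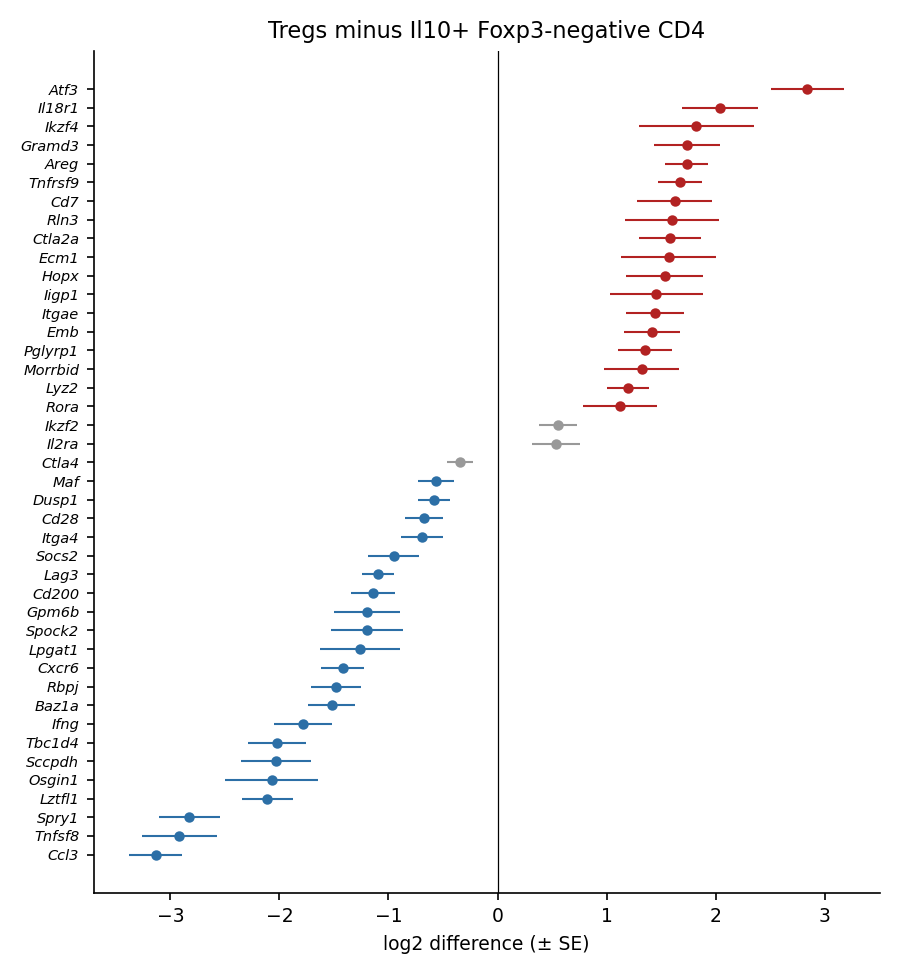
Log2 differences with SE (x axis) between Tregs and Il10-positive Foxp3-negative CD4 T cells, a row per gene. Red and blue points had an adjusted p under 0.05 and gray points did not. Areg, Tnfrsf9 and Itgae were higher in Tregs, and Ccl3, Tnfsf8 and Spry1 were the lowest shown.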

How the data were processed

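CD45+ cells of the sciatic nerve were profiled in 3 libraries from 4 mice with 10x 5′ chemistry. Per the file headers, the authors made UMI counts with Cell Ranger (5.0.1 for library 1, 6.1.2 for libraries 2 and 3) on mm10, and the deposited values are raw counts per gene and cell. Library 1 carried no gene list and took the row order of the others (Spearman 0.9501 and 0.9287 across genes, against 0.3619 and 0.3211 when shifted by 1 row). Cells with at most 5000 genes and 20% mitochondrial UMIs were kept.

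UMIs were summed per library and cell group and tested with edgeR 4.0.16 (R 4.3.3; quasi-likelihood, TMM, filterByExpr, library as a block, Benjamini-Hochberg over all genes tested, called at an adjusted p under 0.05). The library pairs the cell groups because both come from the same mice. Each SE is the absolute log2 difference divided by the square root of the test's F statistic. It leaves out the degrees of freedom, so a difference of several SE can still miss the threshold, as for Gzmb and Tnfsf11. Named genes were the markers, list members and, per direction, the 10 largest called differences that went the same way in every library, with a mean of at least 50 CPM in the higher group, leaving out gate, list, antigen receptor, ribosomal, mitochondrial and unnamed genes. Members and lists were chosen with earlier results of these data known. Coordinates came from GENCODE M21, which held 32158 of 32285 gene IDs. In simulated data, changed genes were drawn only from those above the median mean count, so recovery at lower counts was not covered. Of those changed 2-fold, 93% were recovered in the comparison with Foxp3-negative CD4 T cells (8804 genes). In that with Il10-positive cells (3615 genes) 70% were recovered. The smaller group therefore had less precision. Unchanged genes that were called numbered 19 and 3 in the same order. A comparison within Tregs and a few listed genes are not reported here. Alternatives were DESeq2 1.42.0, other scaling, no filter, no block, each library left out, thinning and stricter gates. Intervals of shares are exact and cover counting error only, and the approximate interval of a log2 difference was made from its SE.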

Additional observations from a re-analysis of the deposited data

How the results depend on the processing

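Against 739 calls between Tregs and Foxp3-negative CD4 T cells, DESeq2 gave 337 and thinned cells 290, and leaving out 1 library gave 236 to 691. Against 120 calls beside Il10-positive Foxp3-negative cells, DESeq2 gave 34, thinning 28 (with 2 libraries), the removal of cells with B cell or macrophage UMIs 69, a Cd4 UMI in both groups 72, and leaving out 1 library 56 to 217. Without the replicate block the counts were 43 and 7. The causes were not tested. Of the called genes named, 24 of 100 and 4 of 39 kept their call in each alternative that tested them. Il10 between Tregs and Foxp3-negative CD4 T cells turned sign without replicate 2, to a log2 difference of 0.13, and was called lower without replicate 1, at -0.69.

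The Treg share of all cells was 3.70% with 2 or more Foxp3 UMIs, 3.19% with a Cd4 UMI needed and 4.60% after thinning. Of T cells it was 5.54%, 4.71% and 6.93%, and 7.79% without cells with B cell or macrophage UMIs. Of CD4 T cells it was 24.1%, 20.5%, 36.2% and 37.8% in that order. At 1500 UMIs a transcript was seen in 54.4% of Tregs for Ikzf2, 31.0% for Areg and 39.0% for Tnfrsf9, and without thinning in 69.1% for Ikzf2, 34.8% for Areg, 33.2% for Itgae, 48.3% for Tnfrsf9 and 31.4% for Ccr8.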
